A study of Mus musculus with 12 samples.

Results

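The genes described are the enzymes and transporters of glycolysis, lactate transport and the pentose phosphate pathway in BV2 cells, an immortalised mouse microglial line, cultured in high or normal glucose with or without CD200Fc. They were chosen by name, as 35 gene symbols matched exactly to the symbols of the deposited count table. The matching uses no expression value, although the list was drawn up with earlier results of these data known. The 35 symbols matched 36 of the 55487 gene IDs, because *Aldoa* is listed under 2 IDs. Of these 36 IDs, 34 passed the filter on low counts and were tested. The other members are *Slc2a3*, a neuronal-type glucose transporter with 36 counts over all 12 libraries, and *Ldhb*, the heart-type lactate dehydrogenase subunit with 0 counts in all 12. For *Ldhb* a count of 0 allows up to 0.0940 to 0.140 CPM (reads of the gene per 1e6 counted) in a library, taking 3 counts of each library total as the floor and covering counting error only.

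Glycolysis takes glucose in through transporters, phosphorylates it, commits it at phosphofructokinase, splits it into trioses and ends at pyruvate, with a net gain of ATP. Pyruvate is either reduced to lactate, which leaves the cell with a proton through monocarboxylate transporters, or enters mitochondria through pyruvate dehydrogenase, which pyruvate dehydrogenase kinases hold back. The pentose phosphate pathway branches off at glucose 6-phosphate, makes NADPH in its oxidative arm and interconverts sugars in its non-oxidative arm. Activated macrophages and microglia are known for high glycolytic flux, and NADPH feeds both their oxidative burst and their antioxidant defence.

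The 4 groups, with 3 libraries each, were high glucose with CD200Fc (HG+CD200Fc), high glucose alone (HG), normal glucose with CD200Fc (NG+CD200Fc) and normal glucose alone (NG). CD200Fc, the extracellular part of the ligand CD200 joined to an antibody Fc part, was used at 50 ng/mL and engages CD200R1, an inhibitory receptor found on myeloid cells. Neither glucose concentrations nor treatment times are given in the sources used here. No group is an Fc or an osmotic control. All libraries name BV2 as their source, although the accompanying treatment text describes dissected mouse retina and sorting of GFP-positive cells. The labels do not say whether replicates were grown as separate cultures, and p-values therefore measure library-to-library spread that may be technical.

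Library totals ran from 21454087 to 31905649 counts. Macrophage genes such as *Csf1r* and *Cd68* were abundant in every library, and the 13 markers of microglia and macrophages summed to 4227 to 4484 CPM in HG+CD200Fc, 4685 to 5285 in HG, 4612 to 4772 in NG+CD200Fc and 4881 to 5086 in NG. The homeostatic microglial markers *Cx3cr1* and *P2ry12* were low, with medians of 2.55 and 1.74 CPM. Of the markers of other cells, 5 of 8 for photoreceptors and 6 of 7 for retinal neurons lay under 1 CPM in all 12 libraries, with *Crx* at 0 in each. Of the markers of Muller glia and astrocytes, 2 of 6 did so. The photoreceptor marker *Pde6b* had a median of 33.4 CPM, and *Glul* of the glial list had a median of 149 CPM. Which cells these counts came from was not tested. HG replicate 2 stood apart, with 1.49% of its counts in nuclear ribosomal RNA genes, and member calls that change without it, when HG is compared with NG or HG+CD200Fc with HG, are given both ways. That share was 0.0981% to 0.119% in HG+CD200Fc libraries, 0.0698% and 0.0788% in the remaining HG libraries, 0.0563% to 0.0599% in NG+CD200Fc libraries and 0.0530% to 0.0550% in NG libraries. It thus moved with the groups, and its part in the results was not tested. In RNA from a whole culture, fewer cells of a type and less RNA per cell cannot be told apart.

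Together the members took 1.2%, 1.17% and 1.18% of the counts in HG+CD200Fc libraries, 1.41%, 1.21% and 1.34% in HG libraries, 1.24%, 1.22% and 1.29% in NG+CD200Fc libraries and 1.30%, 1.27% and 1.30% in NG libraries. The lowest of the HG shares belongs to HG replicate 2, and the HG+CD200Fc shares lay below those of the other groups in every library. Per kilobase of exon the most abundant member was the pyruvate kinase gene *Pkm*, with 623 in HG+CD200Fc, 594 in HG, 599 in NG+CD200Fc and 628 in NG, as mean CPM per kilobase. *Aldoa* followed, with means of 395 in HG+CD200Fc, 503 in HG, 435 in NG+CD200Fc and 453 in NG. *Gpi1*, *Tpi1*, *Gapdh*, *Pgk1*, *Pgam1*, *Eno1* and *Ldha* had means between 112 (*Gpi1*, HG+CD200Fc) and 359 (*Pgk1*, NG). *Pfkfb2* had the lowest level of the tested members, with means of 1.26 in HG+CD200Fc, 1.38 in HG, 1.26 in NG+CD200Fc and 1.02 in NG.

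**Figure D1:**
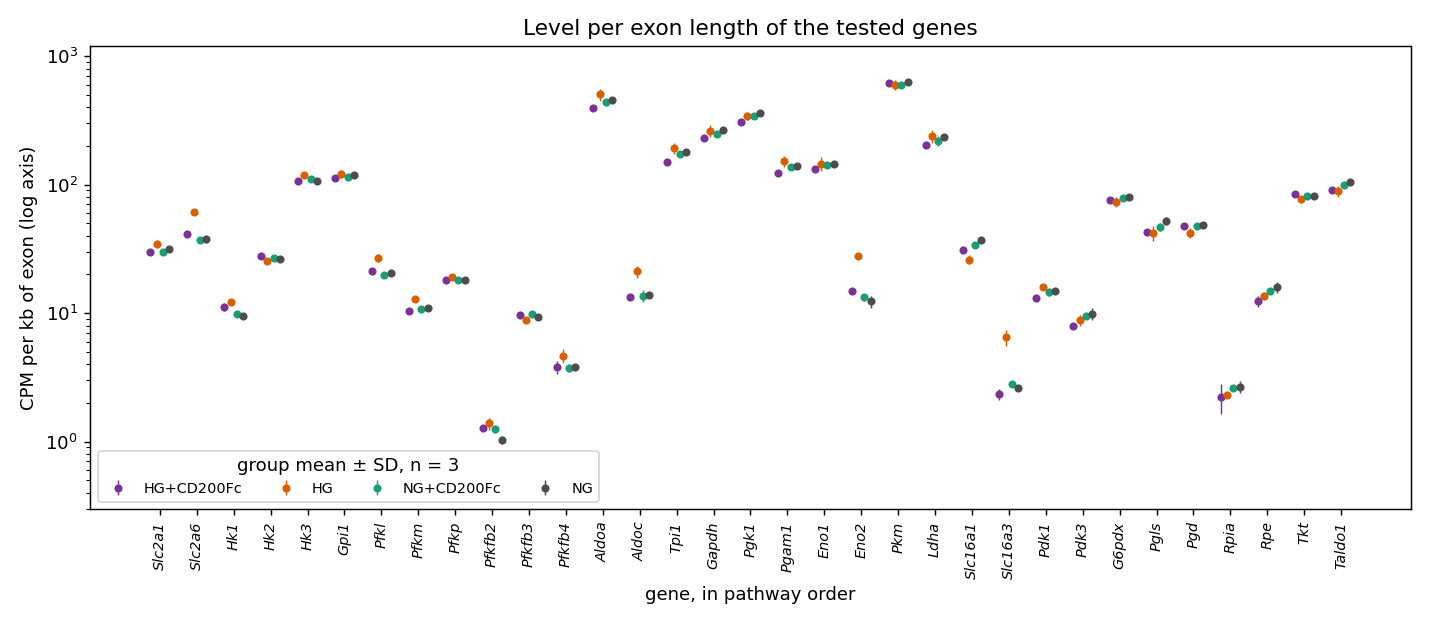
Level per exon length of 33 tested members in pathway order, on a log axis in CPM per kilobase of exon. Points are means of 3 libraries and bars are SD, with HG+CD200Fc, HG, NG+CD200Fc and NG from left to right for each gene. *Pkm* is the highest in every group, at 594 or more, and *Slc16a3*, *Eno2*, *Aldoc* and *Slc2a6* have their highest mean in HG.

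The upstream sequences of 4 members, the transporters *Slc16a3*, *Slc2a6* and *Slc16a1* and the enzyme *Eno2*, are shown as examples of members that changed in HG vs NG. They were picked with their values and motifs known, and *Aldoc*, which also changed, holds 1 ACGTG and 2 GCGTG in the window of its first start. They are the 250 bases before the start given by RefSeq (build GRCm38.p6), 5′ to 3′ on the gene's strand. Capitals mark ACGTG or GCGTG on either strand, the core sequence bound by hypoxia-inducible factors, and CACGTG, which is read as ACGTG on both strands and is also the core of sites for Myc and the Mondo glucose sensors. They lie at chr11:120948817-120949066 (plus strand, *Slc16a3*), chr6:124769674-124769923 (minus strand, *Eno2*), chr2:27027999-27028248 (minus strand, *Slc2a6*) and chr3:104638414-104638663 (plus strand, *Slc16a1*). The *Slc16a3* stretch lies within the annotated span of the gene (chr11:120948480-120960868), as the RefSeq start used lies past the annotated gene start.
Slc16a3: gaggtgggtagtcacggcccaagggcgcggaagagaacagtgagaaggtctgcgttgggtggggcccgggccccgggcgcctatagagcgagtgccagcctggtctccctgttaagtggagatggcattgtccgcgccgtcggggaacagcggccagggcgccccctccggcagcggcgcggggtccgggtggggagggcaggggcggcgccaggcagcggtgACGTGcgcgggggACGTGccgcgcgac
Eno2: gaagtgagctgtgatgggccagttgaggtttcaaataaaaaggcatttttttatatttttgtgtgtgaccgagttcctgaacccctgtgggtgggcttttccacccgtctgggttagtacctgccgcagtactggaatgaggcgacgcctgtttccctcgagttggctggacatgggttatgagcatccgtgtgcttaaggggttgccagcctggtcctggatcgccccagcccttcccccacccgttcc
Slc2a6: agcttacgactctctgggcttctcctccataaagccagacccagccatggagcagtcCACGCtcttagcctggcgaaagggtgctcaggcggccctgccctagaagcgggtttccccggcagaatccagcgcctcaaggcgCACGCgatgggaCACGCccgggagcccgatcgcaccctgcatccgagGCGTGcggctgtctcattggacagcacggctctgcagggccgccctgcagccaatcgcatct
Slc16a1: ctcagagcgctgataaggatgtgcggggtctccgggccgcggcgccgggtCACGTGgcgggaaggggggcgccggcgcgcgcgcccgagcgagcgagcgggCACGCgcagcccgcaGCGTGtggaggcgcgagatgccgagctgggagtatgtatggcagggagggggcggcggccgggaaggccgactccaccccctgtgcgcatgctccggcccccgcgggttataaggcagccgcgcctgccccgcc
The *Slc16a3* stretch holds 2 ACGTG close to that RefSeq start and the *Slc2a6* stretch holds 4 GCGTG, while the *Eno2* stretch holds neither motif. The *Slc16a1* stretch holds 1 CACGTG and 2 GCGTG. Over windows of 250 bases before to 50 after the start, 34 members matched 50 RefSeq starts. ACGTG was in 44% of these windows against 19.6% of 32851 windows of all genes, GCGTG in 60% against 32.4%, and CACGTG in 10% against 7.15%. Several members have more than 1 start with overlapping windows, and a match describes letters only. All of these motifs hold a CG pair, and the windows of all genes were not matched to the members for base composition or expression. Whether the shares differ beyond that was not tested.

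In high glucose alone (HG vs NG) the monocarboxylate transporter *Slc16a3*, the enolase isozyme *Eno2*, the sugar transporter *Slc2a6* and the aldolase isozyme *Aldoc* rose, and most of the abundant enzymes of the same steps did not pass the test. From glucose uptake to pyruvate, 10 of 22 tested members passed, all of them higher. Members are counted by gene ID, so *Aldoa* counts under 2 IDs. Its low-count second ID was among the 10 and its main ID was not. In the pentose phosphate pathway 4 of 7 passed, all of them lower, and *Slc16a1*, the other lactate transporter, fell as well. Over all members 11 rose and 5 fell of 34 tested, where edgeR's quasi-likelihood test at an adjusted p under 0.05 called 24.6% of 19182 genes (11.7% higher and 12.9% lower). The median log2 fold change of the members was 0.05, beside 0.02 over all genes, and it was -0.016 without HG replicate 1 and 0.088 without HG replicate 2. The 3 libraries of HG and NG did not overlap for 12 members higher (19.9% of all genes) and 5 lower (19.8%). Without HG replicate 2 the counts were 13 higher and 3 lower, with 12 of 22 between uptake and pyruvate and 2 of 7 in the pentose phosphate pathway. Of all genes, 3511 of 19780 then passed, against 4720 of 19182 with all libraries. Without NG replicate 1 the pentose phosphate count was also 2 of 7, and 3326 of 19945 genes passed. With a trend of fold change on exon length and GC content removed, 8 members rose and 9 fell, among them 6 of 7 of the pentose phosphate pathway. Of all genes, 5353 of 19131 passed with that trend removed.

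CD200Fc in high glucose (HG+CD200Fc vs HG) went with lower levels along the path to lactate. From uptake to pyruvate 12 of 22 passed, all of them lower, and 7 of the 10 triose-step IDs were among them. *Slc16a3*, *Eno2*, *Aldoc* and *Slc2a6* fell, and so did *Tpi1*, *Aldoa*, *Pgam1*, *Gapdh*, *Pgk1* and *Ldha*, which had not passed the test in HG vs NG. *Slc16a1* rose, as did *Pgd* and *Tkt* of the pentose phosphate pathway. In all, 3 rose and 15 fell of 34, where 17.8% of all genes passed (9.46% higher and 8.3% lower), and the median was -0.16 beside -0.02 over all genes. The libraries did not overlap for 5 members higher (15.3% of all genes) and 16 lower (16%). Without HG replicate 2, 1 rose (*Slc16a1*) and 18 fell, and the median of the members was then -0.22. Of all genes, 3148 of 19780 then passed, against 3408 of 19182 with all libraries. Without HG replicate 1 the fall was narrower, as *Slc2a1*, *Hk3*, *Gapdh*, *Pgk1* and *Ldha* no longer passed (adjusted p from 0.075 to 0.29). Of all genes, 2772 of 19827 passed without that library. *Pfkfb4* then passed as lower (-0.36, adjusted p = 0.031), and *Slc16a1*, *Pgd* and *Tkt* still rose. Both comparisons use the HG libraries, so opposite signs in them are not independent.

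**Figure D2:**
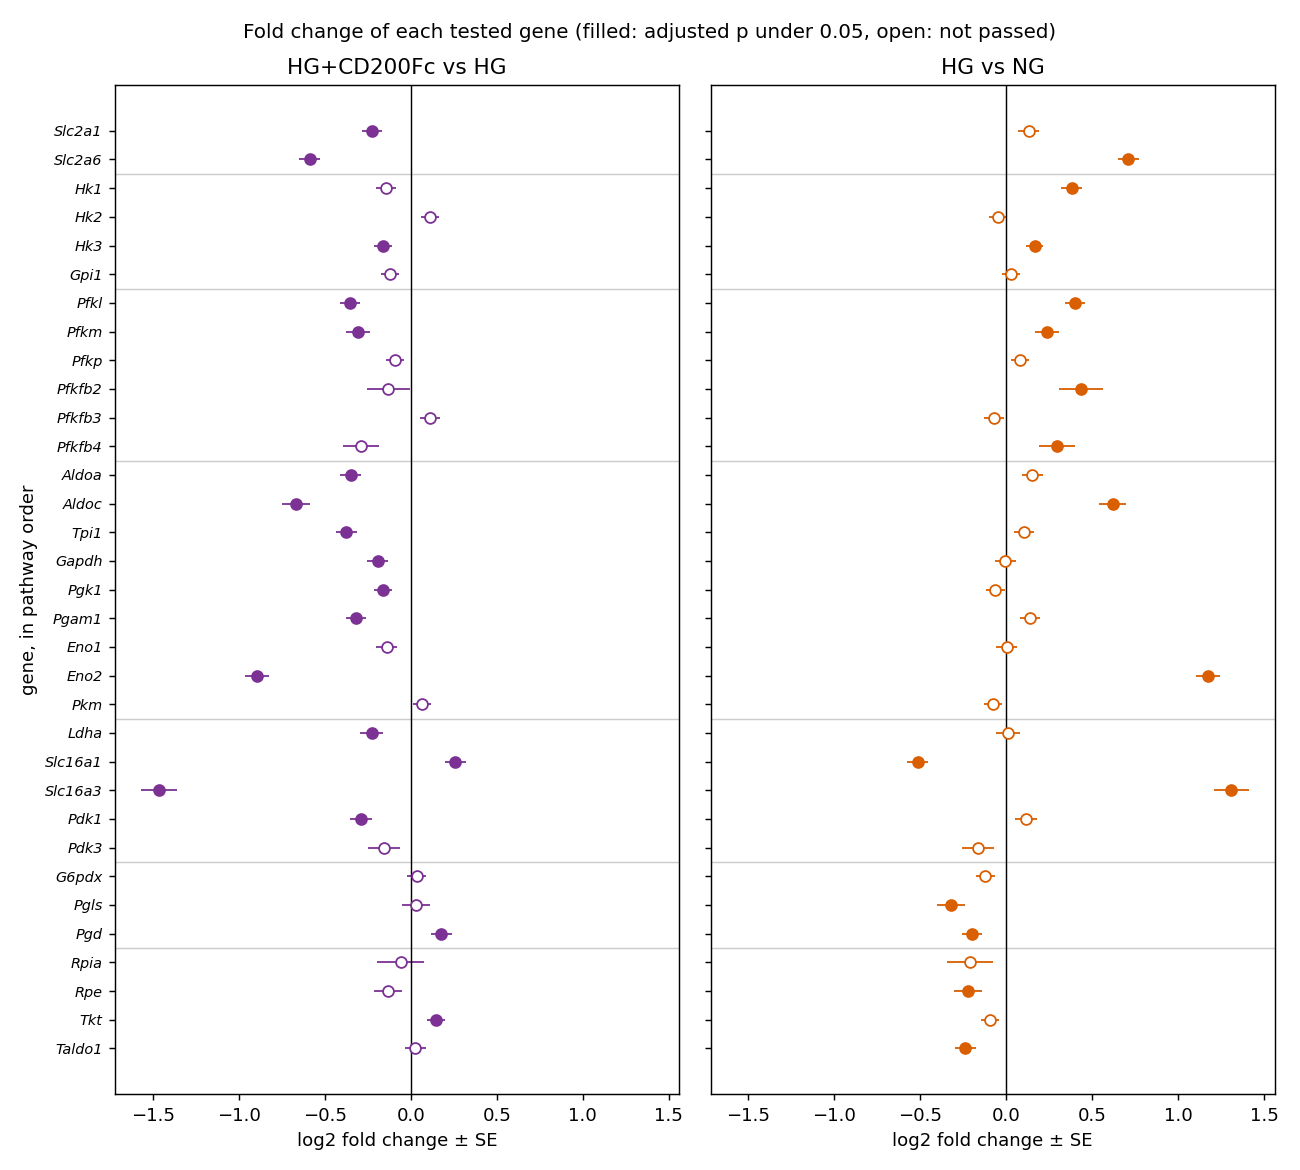
Log2 fold change ± SE of 33 tested members, in pathway order from glucose uptake at the top to the pentose phosphate pathway at the bottom, for HG+CD200Fc vs HG (left) and HG vs NG (right). Filled points passed an adjusted p under 0.05 and open points did not. *Slc16a3*, *Eno2*, *Slc2a6* and *Aldoc* lie to the right in HG vs NG and to the left in HG+CD200Fc vs HG, and the 7 pentose phosphate genes at the bottom all lie left of 0 in HG vs NG.

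The tested glucose transporter members were *Slc2a1*, which encodes the widely expressed GLUT1, and *Slc2a6*, which encodes GLUT6, a transporter located mainly at lysosomes in mouse macrophages. *Slc2a6* (chr2:27021363-27027998) had 127, 134 and 134 CPM in HG+CD200Fc libraries, 208, 184 and 199 CPM in HG libraries, 119.6, 112 and 126 CPM in NG+CD200Fc libraries and 113, 126 and 123 CPM in NG libraries. All 3 HG libraries lay above all other libraries, and the HG+CD200Fc libraries lay just above the NG libraries. The log2 fold change was 0.71 ± 0.061 in HG vs NG (adjusted p = 2e-09) and -0.59 ± 0.061 in HG+CD200Fc vs HG (adjusted p = 7e-08). *Slc2a1* had 105, 105 and 102 CPM in HG+CD200Fc libraries, 129, 113 and 122 CPM in HG libraries, 102, 102 and 109 CPM in NG+CD200Fc libraries and 108, 108 and 118 CPM in NG libraries. Its HG and NG libraries overlapped (0.13 ± 0.059, adjusted p = 0.113), and HG+CD200Fc lay below HG (-0.23 ± 0.059, adjusted p = 0.00756), a call that was lost without HG replicate 1 (adjusted p = 0.075). Without HG replicate 2, *Slc2a1* passed in HG vs NG (0.18, adjusted p = 0.039). On the scale of CPM per kilobase, *Slc2a6* made up 58.0% of the sum of both transporters in HG+CD200Fc, 63.9% in HG, 55.4% in NG+CD200Fc and 54.3% in NG.

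**Figure D3:**
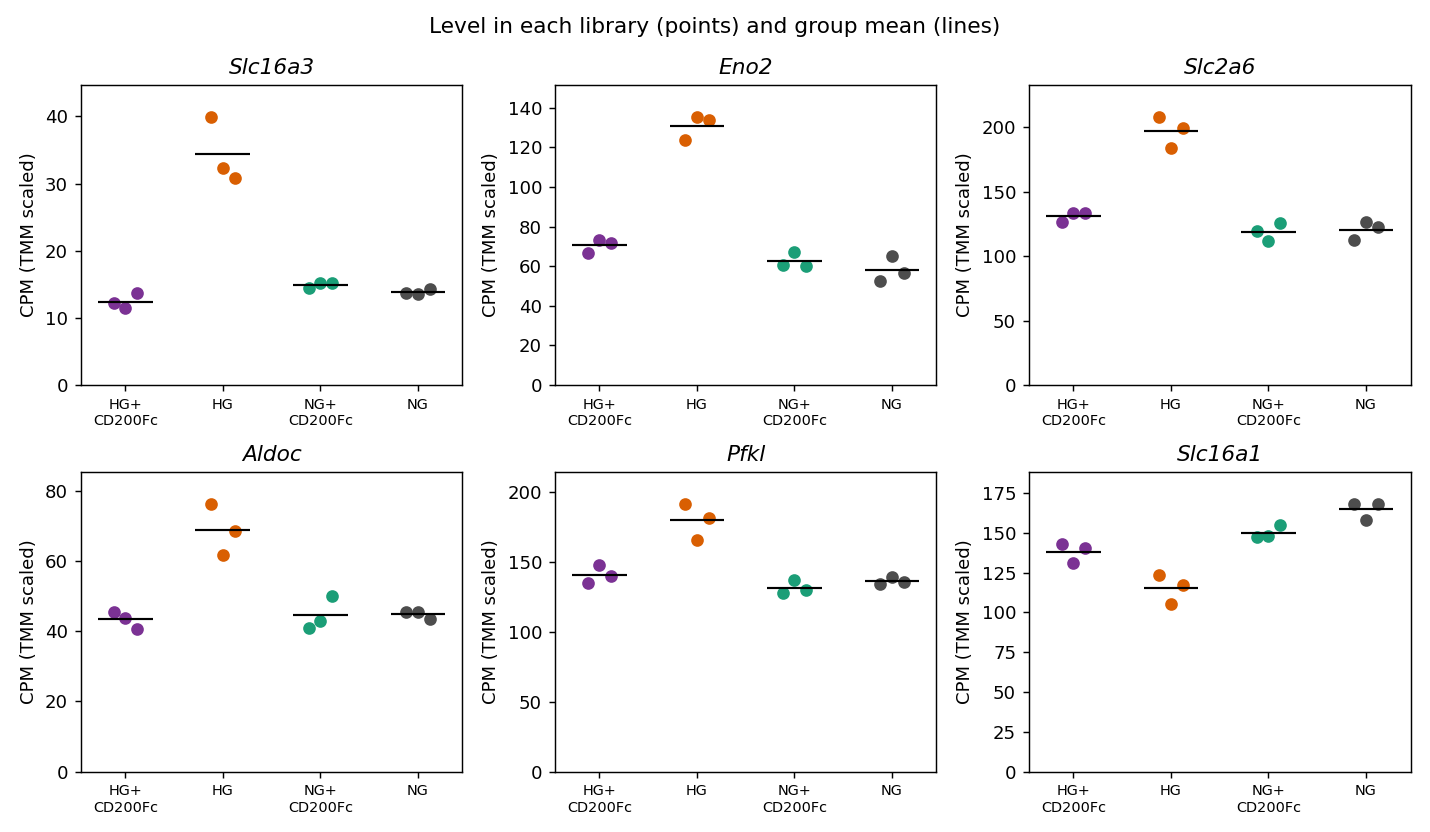
Level in each library (points) and group mean (line) in CPM for 6 members, with HG+CD200Fc, HG, NG+CD200Fc and NG from left to right. For *Slc16a3*, *Eno2*, *Slc2a6*, *Aldoc* and *Pfkl* the 3 HG points lie above the points of every other group, and for *Slc16a1* they lie below all others.

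Hexokinases trap glucose in the cell by phosphorylation, and glucose 6-phosphate isomerase (*Gpi1*) then makes fructose 6-phosphate. *Hk3*, the hexokinase of myeloid cells, was the most abundant of the family per kilobase, at 107 in HG+CD200Fc, 119 in HG, 112 in NG+CD200Fc and 106 in NG (mean CPM per kilobase). It rose by 0.17 ± 0.051 in HG vs NG (adjusted p = 0.0183) and fell by 0.16 in HG+CD200Fc vs HG (adjusted p = 0.0284). Both calls were among those lost on leaving out single libraries, in 8 and 9 of 22 alternatives. With the length and GC trend removed, the HG vs NG call was lost as well (0.06, adjusted p = 0.36). The HG+CD200Fc vs HG call held there (-0.17, adjusted p = 0.0049). *Hk1*, the housekeeping form bound to mitochondria, averaged 95 ± 6.79 CPM in HG+CD200Fc, 105 ± 4.98 in HG, 83.7 ± 3.21 in NG+CD200Fc and 80.6 ± 0.572 in NG (SD, n = 3). It was higher in HG (0.38 ± 0.060, adjusted p = 3.36e-05), and it was also higher in HG+CD200Fc than in NG (0.24 ± 0.061, adjusted p = 0.00628), where the call was lost without HG+CD200Fc replicate 2 and after removal of the length and GC trend. *Hk2*, the inducible form that HIF1 and Myc act on in other cells, had 161, 171 and 162 CPM in HG+CD200Fc libraries, 158, 149 and 150.0 CPM in HG libraries, 162, 161 and 156 CPM in NG+CD200Fc libraries and 156, 158 and 159 CPM in NG libraries. The 4 groups of *Hk2* lay within 149 to 171 CPM and no comparison passed the test (-0.05 ± 0.052 in HG vs NG, 95% interval -0.15 to 0.05). With the length and GC trend removed, *Hk2* was lower in HG vs NG (-0.13, adjusted p = 0.029). *Gpi1* had 723, 743 and 697 CPM in HG+CD200Fc libraries, 835, 722 and 794 CPM in HG libraries, 749, 740.2 and 744 CPM in NG+CD200Fc libraries and 785, 751 and 774 CPM in NG libraries. No comparison passed for it either, and it stood at 0.03 ± 0.052 in HG vs NG. In HG+CD200Fc vs HG, *Gpi1* passed as lower without HG replicate 2 (-0.18, adjusted p = 0.013) and with the length and GC trend removed (-0.14, adjusted p = 0.035). *Hk1* passed as lower there without HG replicate 2 (-0.18, adjusted p = 0.045) and with the length and GC trend removed (-0.22, adjusted p = 0.0027). With all libraries and the trend kept, *Hk1* did not pass there (-0.14 ± 0.060, adjusted p = 0.105).

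Phosphofructokinase carries out the committed step, and the bifunctional enzymes encoded by *Pfkfb2*, *Pfkfb3* and *Pfkfb4* set the level of its activator fructose 2,6-bisphosphate. *Pfkl*, the liver-type subunit and the most abundant of the family per kilobase, had 135, 148 and 139.7 CPM in HG+CD200Fc libraries, 192, 166 and 182 CPM in HG libraries, 128, 137 and 130.2 CPM in NG+CD200Fc libraries and 134, 139 and 136 CPM in NG libraries. The HG libraries stood above all others and the remaining groups overlapped. *Pfkl* rose in HG vs NG (0.40 ± 0.058, adjusted p = 1.06e-05) and fell in HG+CD200Fc vs HG (-0.35 ± 0.058, adjusted p = 6.34e-05). *Pfkm*, the muscle-type subunit, was at 0.24 ± 0.070 (adjusted p = 0.0133) and -0.31 ± 0.071 (adjusted p = 0.00247) in the same comparisons. Its HG vs NG call was lost in 5 of 22 alternatives, among them without HG replicate 2 (0.20, adjusted p = 0.072), without NG replicate 1 or 3, and with the length and GC trend removed (0.14, adjusted p = 0.14). In both comparisons the platelet-type subunit *Pfkp* did not pass (0.08 ± 0.052 and -0.09 ± 0.052). Without division by exon length, *Pfkp* was the most abundant subunit gene, with 75750 counts over all libraries against 45269 for *Pfkl*. Their exon lengths are 13401 and 6675 bases, so the ranking of both depends on that division. *Pfkm* overlaps *Senp1* on the opposite strand, with 29298 counts against 11578 for *Pfkm* over all libraries, and the strand setting of the counting is not given in the sources used here. Per kilobase, *Pfkl* made up 42.5% of the 3 subunit genes in HG+CD200Fc, 45.5% in HG, 40.7% in NG+CD200Fc and 41.2% in NG. Among the bifunctional enzymes, *Pfkfb2* (0.44 ± 0.126, adjusted p = 0.012) and *Pfkfb4* (0.30 ± 0.104, adjusted p = 0.0367) rose in HG vs NG. The *Pfkfb4* call was lost in 9 of 22 alternatives, among them without HG replicate 2 (0.32, adjusted p = 0.054), HG replicate 3 or any NG library. The *Pfkfb2* call was lost without NG replicate 2 or HG replicate 3 (adjusted p up to 0.10). In HG+CD200Fc vs HG, *Pfkfb4* did not pass (-0.29 ± 0.104, adjusted p = 0.0524). It passed as lower there without HG replicate 1 (-0.36, adjusted p = 0.031) and with the length and GC trend removed (-0.30, adjusted p = 0.044). *Pfkfb2* shares its locus with *Yod1* on the opposite strand, which took 3729 counts against 2751. *Pfkfb3*, the isoform with the highest kinase activity and an inflammatory target in macrophages, had 72.5, 70.4 and 74.5 CPM in HG+CD200Fc libraries, 69.5, 65.5 and 66.1 CPM in HG libraries, 76.4, 71.3 and 73.5 CPM in NG+CD200Fc libraries and 71.7, 69.5 and 70.3 CPM in NG libraries. Its groups lay within 65.5 to 76.4 CPM and no comparison passed the test (-0.07 ± 0.057 in HG vs NG).

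The triose steps run from aldolase through triose phosphate isomerase, glyceraldehyde 3-phosphate dehydrogenase, phosphoglycerate kinase and mutase and enolase to pyruvate kinase. At the aldolase and enolase steps the minor isozymes changed in high glucose and the dominant ones did not pass. *Eno2*, the gamma enolase known from neurons (chr6:124760053-124769673), had 66.8, 73.3 and 71.5 CPM in HG+CD200Fc libraries, 124, 135 and 134 CPM in HG libraries, 60.7, 67.4 and 60.3 CPM in NG+CD200Fc libraries and 52.5, 64.9 and 56.4 CPM in NG libraries. Every HG library held more than any library of the other groups, and the HG+CD200Fc libraries lay above the NG libraries. *Eno2* rose by 1.18 ± 0.070 in HG vs NG (2.26-fold, adjusted p = 1.87e-12) and was lower by -0.89 ± 0.070 in HG+CD200Fc vs HG (adjusted p = 6.12e-10). In HG+CD200Fc vs NG it stayed higher, at 0.28 ± 0.071 (adjusted p = 0.00557), but this call was lost without NG replicate 1 and after removal of the length and GC trend (adjusted p up to 0.0764), and the value was 0.17 with that trend removed and the replicate number as a block. *Aldoc*, the brain-type aldolase (chr11:78322968-78327781), had 45.3, 43.9 and 40.7 CPM in HG+CD200Fc libraries, 76.2, 61.5 and 68.6 CPM in HG libraries, 40.8, 42.8 and 49.9 CPM in NG+CD200Fc libraries and 45.6, 45.4 and 43.5 CPM in NG libraries. Its HG libraries were above all others and the other 3 groups overlapped. It changed by 0.62 ± 0.079 in HG vs NG (adjusted p = 1.61e-06) and by -0.67 ± 0.079 in HG+CD200Fc vs HG (adjusted p = 6.72e-07).

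The housekeeping isozymes of these steps differed less. *Eno1* averaged 708 ± 2.87 CPM in HG+CD200Fc, 781 ± 93.5 in HG, 760 ± 16.5 in NG+CD200Fc and 780 ± 40.4 in NG (SD, n = 3), and its log2 fold change in HG vs NG was 0.00 ± 0.062 with a 95% interval of -0.12 to 0.12. In HG+CD200Fc vs HG, *Eno1* did not pass (-0.14, adjusted p = 0.132), but it passed as lower without HG replicate 2 (-0.23, adjusted p = 0.0029) and with the length and GC trend removed (-0.19, adjusted p = 0.038). The retrocopy *Eno1b* held 20.5% as many counts as *Eno1*, so reads may be shared between them. *Aldoa*, the aldolase with most of the counts, had 1170, 1154 and 1124 CPM in HG+CD200Fc libraries, 1609, 1304 and 1482 CPM in HG libraries, 1259, 1204 and 1341 CPM in NG+CD200Fc libraries and 1345, 1266 and 1343 CPM in NG libraries. HG replicates 1 and 3 were high and HG replicate 2 fell among the NG libraries, while all HG+CD200Fc libraries lay below every other library. *Aldoa* did not pass in HG vs NG (0.15 ± 0.060, adjusted p = 0.0642), passed without HG replicate 2 (0.23, adjusted p = 0.0034), and was lower in HG+CD200Fc vs HG (-0.35 ± 0.060, adjusted p = 0.000103). The other *Aldoa* ID, ENSMUSG00000114515, lies just upstream (chr7:126800790-126809108, minus strand) and had 593 counts over all libraries. It had 1.61, 2.66 and 1.56 CPM in HG+CD200Fc libraries, 2.67, 2.16 and 2.92 CPM in HG libraries, 1.9, 1.77 and 1.93 CPM in NG+CD200Fc libraries and 1.23, 1.33 and 1.38 CPM in NG libraries. These are low counts, with NG lowest in every library, and the log2 fold change in HG vs NG was 0.97 ± 0.269 (adjusted p = 0.00851).

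*Gapdh*, often used as a loading control, had 962, 967 and 933 CPM in HG+CD200Fc libraries, 1201, 973 and 1094 CPM in HG libraries, 990.5, 997 and 1092 CPM in NG+CD200Fc libraries and 1142, 1035 and 1107 CPM in NG libraries. The HG and NG libraries overlapped, and all HG+CD200Fc libraries lay below all HG and NG libraries. The log2 fold change was -0.01 ± 0.061 in HG vs NG, -0.19 ± 0.061 in HG+CD200Fc vs HG (adjusted p = 0.0291) and -0.20 ± 0.061 in HG+CD200Fc vs NG (adjusted p = 0.0224). The HG+CD200Fc vs HG call of *Gapdh* was lost on leaving out any of 7 libraries, with -0.11 (adjusted p = 0.29) without HG replicate 1. The others were HG replicate 3, each HG+CD200Fc library, NG replicate 3 and NG+CD200Fc replicate 1. *Tpi1* (0.10 ± 0.060), *Pgk1* (-0.06 ± 0.053) and *Pgam1* (0.14 ± 0.059) also did not pass in HG vs NG. In HG+CD200Fc vs HG all 3 fell, with -0.38 ± 0.060 for *Tpi1* (adjusted p = 4.3e-05), -0.32 ± 0.059 for *Pgam1* (adjusted p = 0.000233) and -0.16 ± 0.053 for *Pgk1* (adjusted p = 0.0336). The *Pgk1* call was lost in 12 of 22 alternatives, among them without HG replicate 1 (-0.10, adjusted p = 0.27) or 3, without any HG+CD200Fc library, and with the length and GC trend removed (-0.083, adjusted p = 0.23). Without HG replicate 2, *Tpi1* (0.17, adjusted p = 0.039) and *Pgam1* (0.20, adjusted p = 0.0099) passed in HG vs NG as well. Then 6 of 10 triose-step IDs rose, with both *Aldoa* IDs among them. Annotated copies held 4.4% as many counts as *Pgam1* and 1.5% as many as *Tpi1*. *Pkm*, the pyruvate kinase gene with the highest level of all members, had 3102, 3171 and 3072 CPM in HG+CD200Fc libraries, 3195, 2675 and 3046 CPM in HG libraries, 3008, 3004 and 2974 CPM in NG+CD200Fc libraries and 3195, 3068 and 3154 CPM in NG libraries. It passed in no comparison, and HG replicate 2 was its lowest library. In HG vs NG it stood at -0.08, and it passed as lower without HG replicate 1 (-0.15, adjusted p = 0.038) and with the length and GC trend removed (-0.19, adjusted p = 0.0017). Gene counts do not separate the M1 and M2 splice forms of *Pkm*.

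**Figure D4:**
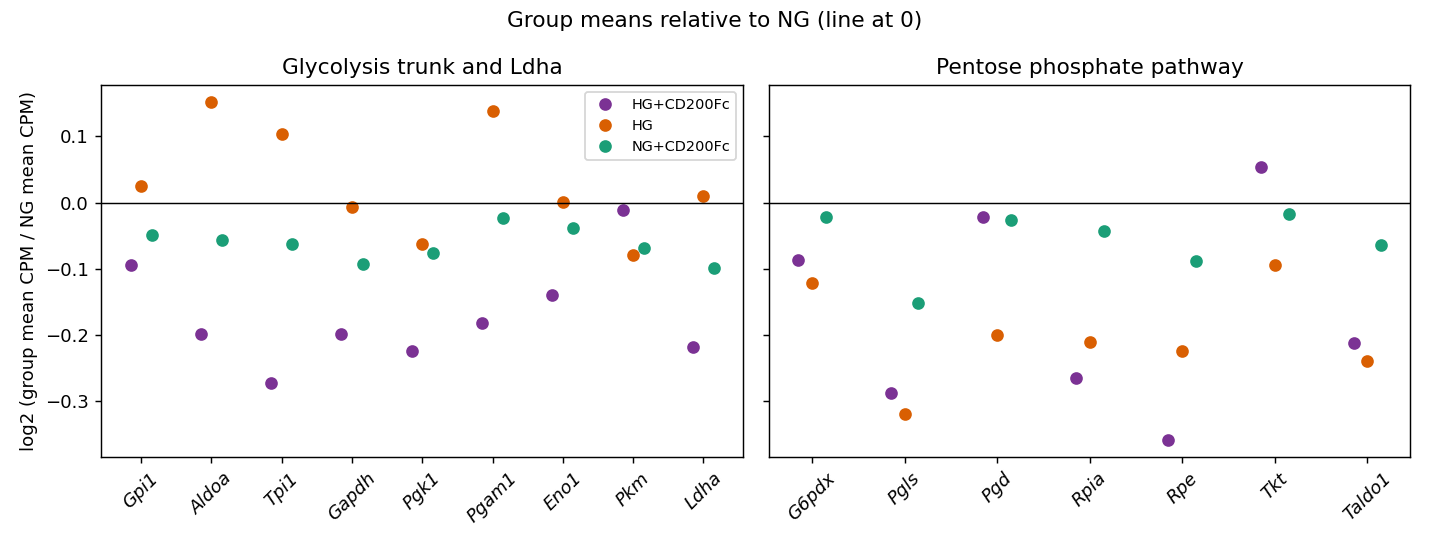
Log2 ratio of each group mean to the NG mean (CPM, line at 0) for the common path from *Gpi1* to *Ldha* (left) and the pentose phosphate pathway (right), with HG+CD200Fc, HG and NG+CD200Fc from left to right. On the left, the HG+CD200Fc points of all genes but *Pkm* are below the HG and NG+CD200Fc points. On the right all 7 HG points and all 7 NG+CD200Fc points are below 0, as are the HG+CD200Fc points of all genes but *Tkt*.

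*Ldha*, the lactate dehydrogenase subunit that favours lactate production, was the only one of its pair with counts. It had 662, 661 and 691 CPM in HG+CD200Fc libraries, 875, 699.5 and 783 CPM in HG libraries, 713, 674 and 799.9 CPM in NG+CD200Fc libraries and 808, 755 and 779 CPM in NG libraries. HG replicate 1 was the highest and HG+CD200Fc replicates 1 and 2 the lowest of the 12, and the HG and NG libraries overlapped (0.01 ± 0.067). *Ldha* was lower in HG+CD200Fc vs HG (-0.23 ± 0.067, adjusted p = 0.0189) and in HG+CD200Fc vs NG (-0.22 ± 0.067, adjusted p = 0.0238). The first of these calls was lost without HG replicate 1 (-0.14, adjusted p = 0.18), among other single libraries.

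The lactate transporters moved in opposite directions in high glucose. *Slc16a3* (chr11:120948480-120960868) encodes MCT4, the low-affinity transporter of cells that export lactate. It had 12.3, 11.4 and 13.7 CPM in HG+CD200Fc libraries, 39.9, 32.3 and 30.8 CPM in HG libraries, 14.5, 15.1 and 15.2 CPM in NG+CD200Fc libraries and 13.7, 13.6 and 14.3 CPM in NG libraries. The HG libraries exceeded all others by a wide margin, and HG+CD200Fc overlapped NG and lay below NG+CD200Fc. Its log2 fold change was 1.31 ± 0.102 in HG vs NG (2.48-fold, adjusted p = 3.56e-10) and -1.47 ± 0.104 in HG+CD200Fc vs HG (adjusted p = 1.15e-10), the widest of the tested members in both. *Slc16a1* (chr3:104638668-104658462) encodes MCT1, the higher-affinity transporter that carries lactate both ways. It had 143, 131 and 140.2 CPM in HG+CD200Fc libraries, 124, 105 and 117 CPM in HG libraries, 148, 148 and 155 CPM in NG+CD200Fc libraries and 168, 158 and 168 CPM in NG libraries. The order was reversed here, with all HG libraries lowest, then HG+CD200Fc, then NG+CD200Fc, then NG, and no overlap between neighbours in that order. *Slc16a1* fell in HG vs NG (-0.52 ± 0.060, adjusted p = 3.86e-07), rose in HG+CD200Fc vs HG (0.26 ± 0.060, adjusted p = 0.00256) and was still lower in HG+CD200Fc than in NG (-0.26 ± 0.060, adjusted p = 0.00321). On the scale of CPM per kilobase, *Slc16a3* made up 6.98% ± 0.451 of both transporters in HG+CD200Fc, 19.9% ± 1.65 in HG, 7.65% ± 0.161 in NG+CD200Fc and 6.55% ± 0.181 in NG (SD, n = 3). *Slc16a1* thus remained the more abundant of both in every group.

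**Figure D5:**
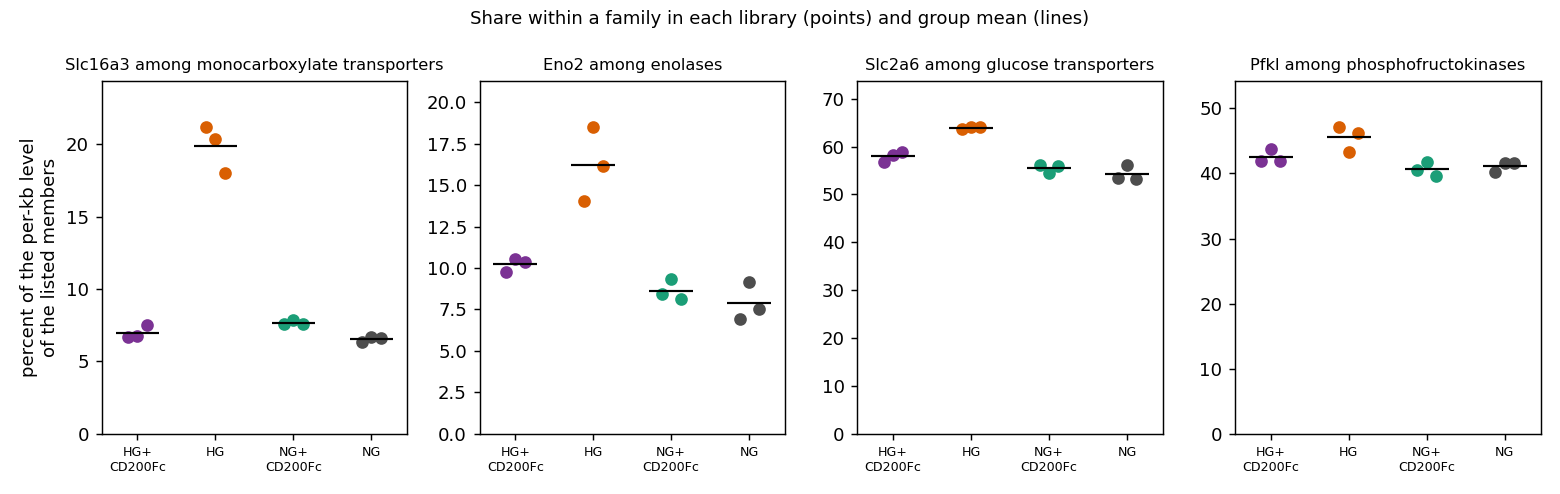
Share of 1 gene in its family, as percent of the summed CPM per kilobase of the listed members, in each library (points) and as group mean (line), with HG+CD200Fc, HG, NG+CD200Fc and NG from left to right. *Slc16a3* averages 19.9% of the monocarboxylate transporter members in HG and 6.55% in NG, and *Eno2* averages 16.2% of the enolase members in HG and 7.86% in NG. The enolase members are *Eno1* and *Eno2* only. The enolase genes *Eno3* (69.5 CPM per kilobase in HG) and *Eno1b* (83.3) are not members and exceed *Eno2* (27.8).

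Pyruvate dehydrogenase kinases, which inhibit the entry of pyruvate into mitochondrial oxidation, were represented by *Pdk1* and *Pdk3*. *Pdk1* averaged 102 ± 6.23 CPM in HG+CD200Fc, 125 ± 5.85 in HG, 114 ± 8.44 in NG+CD200Fc and 116 ± 6.29 in NG (SD, n = 3). It fell in HG+CD200Fc vs HG (-0.29 ± 0.064, adjusted p = 0.00159) and did not pass in HG vs NG (0.11 ± 0.064). *Pdk3* was lower in HG+CD200Fc than in NG (-0.32 ± 0.094, adjusted p = 0.016), with 20.2 ± 0.30 CPM in HG+CD200Fc and 25.2 ± 2.57 CPM in NG (SD, n = 3). It did not pass in HG+CD200Fc vs HG (-0.16 ± 0.094, adjusted p = 0.295) or in HG vs NG (-0.16 ± 0.093, adjusted p = 0.21).

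Of the 7 pentose phosphate members, *Pgls*, *Pgd*, *Taldo1* and *Rpe* fell in HG vs NG, and *G6pdx*, *Rpia* (-0.21 ± 0.133, adjusted p = 0.274) and *Tkt* (-0.09 ± 0.052, adjusted p = 0.197) did not pass. The median of the 7 values was -0.21, and the HG and NG libraries overlapped for *Pgd*, *Rpe* and *Tkt*. In NG+CD200Fc vs NG all 7 values were negative as well, with a median of -0.04, and 0 of 7 passed. *Pgls*, which opens the lactone made by the first enzyme, fell most (-0.32 ± 0.082, adjusted p = 0.00695), with 162 ± 4.84 CPM in HG+CD200Fc, 158 ± 22.1 in HG, 178 ± 13.0 in NG+CD200Fc and 197 ± 15.2 in NG (SD, n = 3). *Pgd*, the second NADPH-producing enzyme of the oxidative arm, fell by 0.20 ± 0.060 (adjusted p = 0.0158). In the non-oxidative arm, transaldolase (*Taldo1*, -0.24 ± 0.062, adjusted p = 0.00538) and ribulose 5-phosphate epimerase (*Rpe*, -0.22 ± 0.082, adjusted p = 0.0481) fell. *Taldo1*, the most abundant gene of that arm per kilobase, had 196, 197 and 194 CPM in HG+CD200Fc libraries, 214, 174 and 189 CPM in HG libraries, 217, 211 and 223 CPM in NG+CD200Fc libraries and 242, 221 and 218 CPM in NG libraries. All HG libraries lay below all NG libraries, and HG replicate 1 was the highest of the HG libraries. Without division by exon length, *Tkt* exceeded *Taldo1*, with 182472 against 63963 counts over all libraries. *G6pdx*, the rate-limiting first enzyme, had 237, 235 and 223 CPM in HG+CD200Fc libraries, 235, 205 and 239 CPM in HG libraries, 244, 237 and 246 CPM in NG+CD200Fc libraries and 246, 243 and 249 CPM in NG libraries. Its HG libraries also lay below its NG libraries, but the difference did not pass (-0.12 ± 0.056, adjusted p = 0.121). It passed without HG replicate 1 (-0.17, adjusted p = 0.043) and with the length and GC trend removed (-0.20, adjusted p = 0.0023).

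HG replicate 2 was the lowest HG library for *G6pdx*, *Pgls*, *Pgd*, *Tkt* and *Taldo1*. Without it *Pgls* (-0.22, adjusted p = 0.027) and *Taldo1* (-0.17, adjusted p = 0.047) still passed, *Pgd* (-0.14, adjusted p = 0.12) and *Rpe* (-0.23, adjusted p = 0.10) did not, and all 7 values remained negative. Under CD200Fc in high glucose, *Pgd* (0.18 ± 0.060, adjusted p = 0.04) and transketolase (*Tkt*, 0.15 ± 0.052, adjusted p = 0.049) rose relative to HG. *Tkt* averaged 624 ± 25.5 CPM in HG+CD200Fc, 563 ± 35.5 in HG, 595 ± 11.1 in NG+CD200Fc and 602 ± 14.0 in NG (SD, n = 3). Neither call held without HG replicate 2, among other single libraries (*Pgd* 0.11, adjusted p = 0.23, and *Tkt* 0.10, adjusted p = 0.23). *Rpia*, the isomerase of the same arm, passed in no comparison.

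In normal glucose CD200Fc changed none of the members by this test. In NG+CD200Fc vs NG, edgeR, DESeq2 and limma voom each called 0 of 34, and edgeR called 0 of 19182 genes (0%). At an unadjusted p under 0.05 there were 2 members, *Pfkfb2* (0.30 ± 0.127) and *Slc16a1* (-0.13 ± 0.060), and 1147 of all genes (5.98%). The libraries did not overlap for 3 members higher (5.71% of all genes) and 3 lower (6.16%). For *Slc16a3* the difference was 0.11 ± 0.105 (95% interval -0.10 to 0.32) and for *Eno2* 0.12 ± 0.071 (-0.02 to 0.25).

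The interaction tested directly whether the CD200Fc difference in high glucose was unlike that in normal glucose. It passed for 9 of 34 members, 1 positive and 8 negative, where 7.2% of all genes passed (3.62% positive and 3.58% negative). The negative ones were *Slc16a3* (-1.57 ± 0.148, adjusted p = 8.96e-08), *Eno2* (-1.01 ± 0.099, adjusted p = 1.92e-07), *Aldoc* (-0.66 ± 0.112, adjusted p = 0.000333), *Slc2a6* (-0.57 ± 0.086, adjusted p = 7.83e-05), *Tpi1*, *Pfkl*, *Pgam1* and *Aldoa* (-0.31 to -0.29), and the positive one was *Slc16a1* (0.39 ± 0.085, adjusted p = 0.00356). The calls of *Slc16a3*, *Eno2*, *Aldoc*, *Slc2a6* and *Slc16a1* passed in all 21 alternatives. Those of *Pfkl*, *Aldoa*, *Tpi1* and *Pgam1* were lost on leaving out single libraries of each group (adjusted p up to 0.126), and 5 members were called without NG replicate 1, NG replicate 3, HG replicate 3 or HG+CD200Fc replicate 3. Of all genes, 974, 1001, 1196 and 1026 passed without these libraries in turn, against 1381 with all libraries. No pentose phosphate gene passed the interaction in edgeR, where 2 of 7 had an unadjusted p under 0.05.

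Under CD200Fc in both arms (HG+CD200Fc vs NG+CD200Fc) 2 of 34 members passed, both lower, where 8.3% of all genes passed (4.65% higher and 3.65% lower). They were *Tpi1* (-0.21 ± 0.060, adjusted p = 0.0304) and *Rpe* (-0.27 ± 0.083, adjusted p = 0.0437). The libraries did not overlap for 4 members higher (13% of all genes) and 13 lower (14.2%). *Slc16a3* stood at -0.27 ± 0.107 and *Eno2* at 0.17 ± 0.071, neither of which passed. Both calls were lost without NG+CD200Fc replicate 1 or 3 or HG+CD200Fc replicate 2 or 3. The count was 4 without HG replicate 1 and 5 without HG replicate 2. Of all genes, 1920 and 1869 passed without these libraries, against 1593 with all libraries.

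High glucose with CD200Fc against untreated normal glucose (HG+CD200Fc vs NG) gave 2 members higher and 12 lower of 34, where 20.3% of all genes passed (9.56% higher and 10.8% lower), and a median of -0.09 beside 0.00 over all genes. The libraries did not overlap for 6 members higher (17.7% of all genes) and 15 lower (19.4%). *Eno2* and *Hk1* were the higher ones. *Aldoa*, *Tpi1*, *Gapdh*, *Pgk1* and *Pgam1* of the triose steps were lower by 0.18 to 0.27 on the log2 scale, as were *Ldha*, *Slc16a1*, *Pdk1*, *Pdk3*, *Pgls*, *Taldo1* and *Rpe* (-0.18 to -0.36). *Slc16a3* (-0.16 ± 0.108), *Aldoc* (-0.05 ± 0.081), *Pfkl* (0.05 ± 0.058) and *Slc2a6* (0.12 ± 0.061) did not pass. *Tpi1*, *Pgk1*, *Slc16a1* and *Rpe* passed in all 22 alternatives. The other 10 calls were lost on leaving out 1 of the NG or HG+CD200Fc libraries, and the count was 5 without NG replicate 1, 8 without NG replicate 3, and 7 without HG+CD200Fc replicate 2 or 3. The calls over all genes fell too, from 3903 to 2217, 2740, 2349 and 2700 without these libraries in turn. With the length and GC trend removed, 16 members fell and *Eno2* and *Hk1* no longer passed, where 3225 of 19131 genes passed.

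Of 52 other genes listed for the same pathways, 37 were tested. In HG vs NG 5 of them rose (*Eno3*, *Slc16a8*, *Pdk2*, *Pdpr* and *Gpd2*) and 7 fell, where 24.6% of all genes passed (11.7% higher and 12.9% lower). In HG+CD200Fc vs HG 4 rose (*Tigar*, *H6pd*, *Pgp* and *Galk1*) and 4 fell (*Slc2a4*, *Eno3*, *Pdk2* and *Gpd2*). There 17.8% of all genes passed (9.46% higher and 8.3% lower). *Eno3*, the muscle enolase, had 87.2, 81.2 and 78.9 CPM in HG+CD200Fc libraries, 132, 108 and 123 CPM in HG libraries, 93.8, 94.3 and 97.1 CPM in NG+CD200Fc libraries and 97.6, 91.9 and 86.7 CPM in NG libraries. It rose in HG vs NG (0.39 ± 0.067) and fell in HG+CD200Fc vs HG (-0.55 ± 0.067, adjusted p = 8.98e-07), as the minor enolase *Eno2* did. *Pdk2*, at 2.04 to 5.95 CPM, also rose in HG vs NG (1.05 ± 0.19, adjusted p = 0.00021) and fell in HG+CD200Fc vs HG (-0.56 ± 0.19, adjusted p = 0.0398). The monocarboxylate transporter *Slc16a8* rose in HG vs NG (0.53 ± 0.19, adjusted p = 0.0395), and the insulin-responsive transporter *Slc2a4*, with 206 counts in all, was lower in HG+CD200Fc vs HG (-2.42 ± 0.66, adjusted p = 0.0104).

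Of 16 regulators listed, 14 were tested. In HG vs NG 3 rose (*Arnt*, *Txnip* and *Arrdc4*) and 3 fell (*Hif1a*, *Prkaa1* and *Trp53*), and in HG+CD200Fc vs HG 3 rose (*Epas1*, *Mlxip* and *Trp53*) and 4 fell (*Arnt*, *Txnip*, *Arrdc4* and *Nfe2l2*). Over all genes the shares passing were 24.6% in HG vs NG and 17.8% in HG+CD200Fc vs HG. *Txnip*, which restrains glucose uptake and is induced by glucose through Mondo proteins, changed by 0.84 ± 0.062 in HG vs NG (adjusted p = 1.1e-10) and by -0.57 ± 0.061 in HG+CD200Fc vs HG (adjusted p = 1.23e-07), and its relative *Arrdc4* by 1.11 ± 0.11 and -0.69 ± 0.11. The Mondo sensor *Mlxip* was higher in HG+CD200Fc than in NG (0.50 ± 0.087, adjusted p = 0.000562). *Hif1a*, the hypoxia-inducible factor that drives many glycolytic genes, was lower in HG than in NG (-0.20 ± 0.058, adjusted p = 0.0109) and at 0.01 ± 0.058 in HG+CD200Fc vs HG. Among markers of other cells, the endothelial list summed to 171 to 187 CPM in HG+CD200Fc, 248 to 252 in HG, 163 to 169 in NG+CD200Fc and 145 to 156 in NG, mostly from *Vwf*, with *Cldn5* and *Rgs5* near 0, and its part in the results was not tested.

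The authors' deposited table lists 33 of the members. By its false discovery rate, the authors' deposited table has 10 members higher and 4 lower in HG vs NG (31.8% of its 15372 genes called), and 1 higher and 11 lower in HG+CD200Fc vs HG (22.6% called). *Gapdh*, *Pgk1*, *Ldha*, *Hk3*, *Pgd* and *Tkt* passed in HG+CD200Fc vs HG here, and their false discovery rates in the authors' deposited table were between 0.052 and 0.14. In HG+CD200Fc vs NG that table has 2 members higher and 7 lower (26% called), against 2 and 12 here. *Aldoa*, *Gapdh*, *Pgam1*, *Ldha* and *Pdk1* passed as lower here, with false discovery rates of 0.070 to 0.102 there.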

How the data were processed

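RNA of 12 BV2 libraries (4 groups of 3) was sequenced as paired 150-base reads after removal of ribosomal RNA, per the labels' protocols. The authors deposited 1 table of read counts per gene, made with STAR and featureCounts on build GRCm38, per the submitters' processing notes. Annotation release and strand setting are not stated there. The authors also deposited a table of log2 fold changes, p-values and false discovery rates, whose columns name its comparisons per the file headers; edgeR and limma stand in the submitters' processing notes. Library totals were 21454087 to 31905649 counts. Floors cover counting error only, while intervals also include the spread between libraries as estimated by the model.

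Repeated lines with identical counts (287) were dropped, leaving 55487 gene IDs. In edgeR 4.0.16 (R 4.3.3), genes were filtered with filterByExpr (19182 kept), scaled by TMM and tested with the quasi-likelihood test in 1 model of the 4 groups, with Benjamini-Hochberg adjustment over all genes and a threshold of 0.05. Fold changes are given ± SE with 95% intervals of the model. CPM were TMM-scaled and divided by GENCODE M21 exon length for levels between genes. limma 3.58.1 (voom), DESeq2 1.42.0, other scalings and filters, a replicate block, removal of the exon length and GC trend, and leaving out each library were the alternatives. In simulated data for HG vs NG, 23.9%, 56.7% and 80.3% of genes changed 1.25-fold, 1.5-fold and 2.0-fold were recovered, with 5 false calls among 18522 unchanged genes. The simulation changed 67, 67 and 66 genes at these folds, whereas 4720 genes were called in the real HG vs NG. The adjustment over all genes depends on that share, so recovery in the real data can differ.

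Members and lists were chosen with earlier results of these data known. Values in every library are given for members that passed with an absolute log2 fold change of at least 0.5 in any comparison, for the most abundant member of each step per kilobase, and for *Slc2a1*, *Hk2*, *Pfkfb3*, *Gapdh*, *Ldha* and *G6pdx*. Other pathway genes and regulators are named under the same thresholds or where 5 or fewer are counted. Promoter windows were taken from RefSeq (build GRCm38.p6). Protein sequences were not analysed here.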

Additional observations from a re-analysis of the deposited data

Results flagged for a closer look

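For 9 members the CD200Fc difference in high glucose was unlike that in normal glucose, by edgeR's interaction test adjusted over all 19182 genes. The interaction, as the log2 difference in high glucose minus that in normal glucose, was -1.57 for *Slc16a3*, -1.01 for *Eno2*, -0.66 for *Aldoc* and -0.57 for *Slc2a6*. It was -0.31 for *Tpi1*, -0.30 for *Pfkl*, -0.30 for *Pgam1* and -0.29 for *Aldoa*. For *Slc16a1*, the lactate transporter that was lower in HG than in NG, it was 0.39.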

How the results depend on the processing

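Of 59 calls on members over the 6 comparisons, 30 passed in every alternative and 29 were lost in at least 1, and no call changed sign. After removal of the exon length and GC trend, the median of the members was -0.035 in HG vs NG, -0.12 in HG+CD200Fc vs NG+CD200Fc and -0.17 in HG+CD200Fc vs NG. With upper quartile scaling it was -0.020 in HG+CD200Fc vs NG+CD200Fc and -0.048 in HG+CD200Fc vs NG. In HG+CD200Fc vs NG+CD200Fc, where 2 members passed, limma voom called 6, the trend removal 6, and upper quartile scaling 1 higher and 1 lower. Of all genes, 2597, 1052 and 1609 passed under these settings, against 1593 in the main fit. The causes of these shifts were not tested.

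With 1 library left out, the members called ran from 0 to 5 in HG+CD200Fc vs NG+CD200Fc, from 5 to 15 in HG+CD200Fc vs NG and from 5 to 10 in the interaction. All genes called ran from 277 to 2288, from 2217 to 4217 and from 974 to 1505 in the same comparisons. The medians of the members then ran from -0.086 to -0.045 in HG+CD200Fc vs NG+CD200Fc, from -0.065 to -0.016 in NG+CD200Fc vs NG, and from -0.19 to -0.061 in the interaction. In NG+CD200Fc vs NG, 0 of all genes passed in edgeR, 21 without the filter on low counts, 9 with only both groups in the fit, 2 with the replicate block, 1 in limma voom and 0 in DESeq2.

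The replicate numbers were not shown to pair the libraries. Same-numbered libraries had correlations of their deviations from -0.032 to 0.106 over 18 pairs, and the best match had the same number in 9 of 18. With the replicate block, 5 members were called in HG+CD200Fc vs NG+CD200Fc, and with the block and the trend removed 13, with medians of -0.12 there, -0.036 in HG vs NG and -0.17 in HG+CD200Fc vs NG. Of all genes, 2314 of 19182 passed in HG+CD200Fc vs NG+CD200Fc with the block, and 1906 of 19131 with the trend removed as well. Members at few counts, such as *Slc2a3* and the short *Aldoa* ID, are limited by depth.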
